A study of Mus musculus with 34 samples.

Results

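Bin-2 leukaemia cells that had regrown in lonafarnib were compared with the same line before the drug was added, on 3 end arrays and 3 start arrays chosen by their titles, which are 6 of the 34 arrays of the study. Bin-2 is a mouse pre-B acute lymphoblastic leukaemia line from a mouse of mixed genetic background that carried a BCR/ABL transgene, the fused kinase that the Philadelphia chromosome gives rise to. Start cells were taken on day 0. End cells were taken on day 30, after continuous exposure to 0.25 µM lonafarnib, when viability was about 90% again. At a midpoint on day 3 viability had been 5 to 10%, and the 3 midpoint arrays are used here only to place levels in time. All cultures, controls included, grew over 1 layer of irradiated mouse embryonic fibroblasts kept for the whole course, and loosely attached or floating cells were collected. A reference for the tests was Bin-2 in 50 nM nilotinib, an inhibitor of the ABL kinase (3 start arrays, 3 end arrays, day 21). Another was the line 8093, a BCR/ABL leukaemia on an inbred C57BL/6J background, in 1 µM lonafarnib (3 start arrays, 2 end arrays, day 26). A course of 8093 in 20 nM nilotinib had 3 start, 3 midpoint (day 3) and 2 end arrays (day 20). Its start arrays served to compare both lines before treatment. Midpoint arrays of Bin-2 in nilotinib (3 arrays, day 3) and 8093 in lonafarnib (3 arrays, day 4) completed the 12 groups. All 12 entered the fit and the plot of chromosome 11 medians per array. Each array came from a separate plate of 1 line, so p-values measure the spread between plates and not between leukaemias, and the regrown Bin-2 cells represent 1 course of treatment.

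Lonafarnib inhibits farnesyltransferase, which attaches a farnesyl lipid to proteins that end in a CAAX motif, among them Ras and Rheb GTPases and nuclear lamins. The lipid anchors these proteins to membranes, and some Ras proteins can take a geranylgeranyl lipid from a related enzyme when farnesylation is blocked. In pre-B leukaemia BCR/ABL drives growth through Ras and ERK, STAT5 and PI3K, and the cells keep the surrogate light chain and other parts of the pre-B cell receptor.

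Values are deposited log2 signals of Affymetrix Mouse Gene 1.0 ST arrays, changes are end minus start on that scale ± SE, the standard error from a limma fit over all 34 arrays, and a gene rose or fell if its Benjamini-Hochberg adjusted p over 19938 genes was below 0.05. Number of arrays limits the precision. Arrays correlated at 0.991 to 0.992 within the start, 0.991 to 0.993 within the end and 0.983 to 0.987 between both. Pre-B identity was present on all 6 arrays: the surrogate light chain gene Igll1 lay between 11.99 and 12.19 and its receptor partner Cd79a between 8.85 and 9.54. In total 1608 genes, 8.07% of those tested, were called, 929 rising (4.66%) and 679 falling (3.41%). After quantile normalization 738 rose and 780 fell, so the excess of rises depends on the scaling. Start and end arrays did not overlap in 25.8% of all genes, called or not. Of the 1608 called genes 228 changed at least 2-fold, 127 up and 101 down, and 45 at least 4-fold. The rising count was 609 without end replicate 3. Counts of list members below are to be set beside the shares called among all genes, and no list was tested. In whole-culture RNA, fewer cells of a type and less RNA per cell cannot be told apart.

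The largest rise was that of C7, which encodes a component of the terminal complement complex. Its signal was 4.51, 4.64 and 4.78 on the start arrays and 8.89, 8.79 and 8.80 on the end arrays, a rise of 4.18 ± 0.18 or 18.2-fold (adjusted p = 2.48e-16). The midpoint mean was 4.28. Start values of C7 lay below the median signals of the start arrays (5.25 to 5.30), so the fold depends on a low level. The end arrays stood far above start and midpoint and nearly coincided with each other.

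Several further genes followed the same course, close to the start level on day 3 and high and even on day 30. Eya1, a transcriptional coactivator with phosphatase activity, read 4.66, 4.41 and 4.20 at the start and 7.26, 7.36 and 7.15 at the end (2.83 ± 0.23, adjusted p = 2.1e-10). Myzap, which encodes a junctional protein best known from the heart, went from 4.48, 4.59 and 4.54 to 7.29, 7.37 and 7.37 (2.80 ± 0.11). Start values of Eya1 and Myzap, like those of C7, lay below the median signals of the start arrays. Rragb, a Rag GTPase that relays amino acid levels to mTORC1, went from 3.79, 3.92 and 3.82 to 6.54, 6.68 and 6.70 (2.80 ± 0.14). Non-overlapping arrays were part of the rule by which genes of largest change were named. The calcium-binding protein gene Gca rose by 3.25 ± 0.18, from 3.51, 3.74 and 4.32 to 7.38, 7.01 and 6.94. Start levels of Gca and Rragb lay little above those of the Y-linked genes (1.89 to 3.38 on these arrays), no measure of detection was used, and the size of their rises therefore depends on a low level. Vat1l rose by 3.11 ± 0.19 and Pros1, the gene of the anticoagulant protein S, by 2.58 ± 0.20, and Exoc6b, of the exocyst that tethers secretory vesicles, rose by 2.55 ± 0.23, both from similarly low start levels. Jchain, the joining chain of polymeric immunoglobulin, rose by 2.69 ± 0.12 from an already high level, with 8.23, 8.26 and 8.41 at the start, a midpoint mean of 7.51 and 11.06, 10.97 and 10.94 at the end. Of 13 measured genes of mature B and plasma cells 2 rose, beside 4.66% rising over all genes, and Jchain was 1 of them. The other was Xbp1, the transcription factor of secretory cells (0.75 ± 0.09).

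A second group of large risers are genes known from macrophages, and their course was different. Mmp12, the macrophage elastase, read 7.17, 7.02 and 5.64 at the start and 9.18, 10.11 and 9.46 at the end (2.98 ± 0.42, adjusted p = 9.35e-06). Lyz2, the lysozyme of macrophages, read 8.03, 7.47 and 6.00, then 9.20, 10.29 and 9.77 (2.59 ± 0.53, adjusted p = 0.00133). Start replicate 3 was the lowest start array and end replicate 2 the highest end array in both genes. Midpoint means were 10.22 for Mmp12 and 10.37 for Lyz2, above the end arrays' means. The lectin Clec4n (2.54 ± 0.49) and the secreted protein gene Wfdc17 (2.61 ± 0.55) had the same lowest start and highest end array. Of 20 macrophage markers 2 rose, Mmp12 and Lyz2, and 1 fell, Cybb, the oxidase subunit of phagocytes, by 1.27 ± 0.35. Cybb was not called without start replicate 2 or 3 or end replicate 1 (adjusted p = 0.0551, 0.0612 and 0.111). The mean level of the marker list lay at 5.62 to 5.97 on the start arrays and 6.06 to 6.51 on the end arrays. Csf1r, the receptor of the macrophage growth factor, did not pass at 7.47, 7.20 and 7.47 against 6.77, 6.91 and 6.70. The part of macrophage RNA in the rises of macrophage-type genes was not tested.

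**Figure D1:**
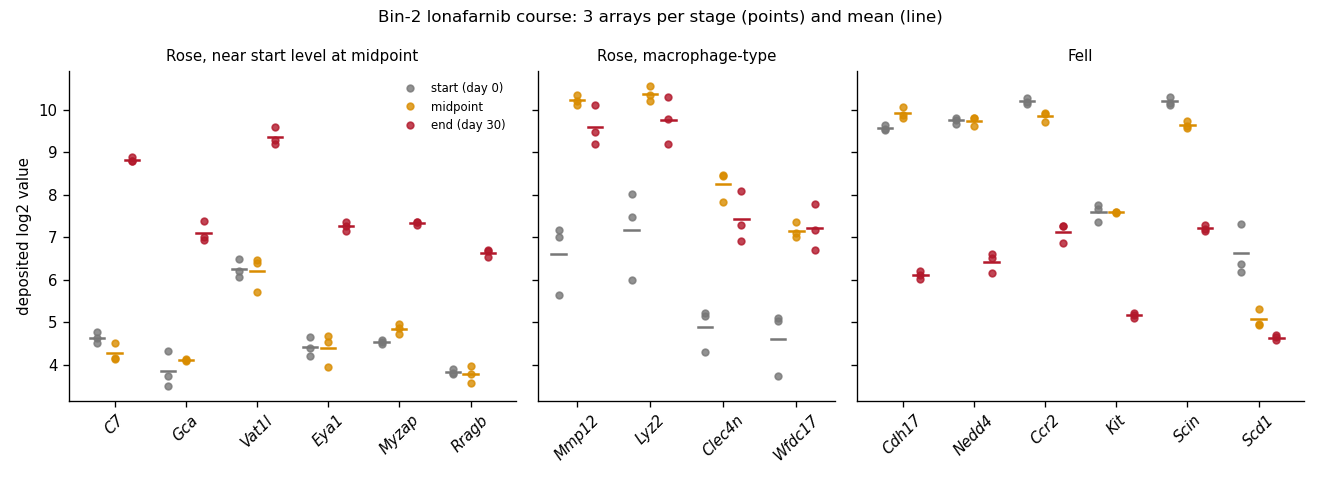
Deposited log2 values of genes with large changes in Bin-2 under lonafarnib, with 3 start (grey), 3 midpoint (orange) and 3 end arrays (red) as points and the mean of each as a line. C7 and the genes beside it stayed near the start on day 3 and rose by day 30 with tight arrays, the macrophage-type genes were already high at the midpoint and spread widely, and Cdh17 fell from a mean above 9.5 to about 6.1 only after the midpoint.

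The largest fall was that of Cdh17, an adhesion molecule of the cadherin family known from the gut and from early B cells. It read 9.52, 9.54 and 9.63 at the start and 6.02, 6.11 and 6.22 at the end (-3.45 ± 0.28, 10.9-fold lower, adjusted p = 3.56e-10), with a midpoint mean of 9.91. Nedd4, a ubiquitin ligase, read 9.81, 9.67 and 9.76, then 6.52, 6.60 and 6.17 (-3.32 ± 0.13). Start and end arrays were widely apart in both, and the midpoint stayed at the start level. Ccr2, the receptor of monocyte-attracting chemokines, fell by 3.06 ± 0.29, from 10.14, 10.18 and 10.27 to 7.27, 7.27 and 6.86. The actin-severing protein gene Scin fell by 2.98 ± 0.17, the ubiquitin ligase Trim2 by 2.84 ± 0.17 and the mucin Muc13 by 2.63 ± 0.15. Htra3, a secreted protease, fell by 2.61 ± 0.12 and Fgfr1, a fibroblast growth factor receptor, by 2.47 ± 0.17. Pcbd1, an enzyme of pterin recycling, fell by 2.73 ± 0.19, and Trf, the iron carrier transferrin, by 2.23 ± 0.19. The adaptor genes Fyb and Sh2d1b1, which act in lymphocyte signalling, fell by 2.31 ± 0.27 and 2.27 ± 0.22. These genes were called with either set of Bin-2 start arrays as controls and without any single array.

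Receptors of early blood progenitors were among the genes that fell. Kit, the stem cell factor receptor, read 7.66, 7.77 and 7.37 at the start and 5.22, 5.10 and 5.17 at the end (-2.44 ± 0.18, adjusted p = 3.79e-11), with a midpoint mean of 7.58. Flt3, a receptor of lymphoid and myeloid progenitors, read 8.78, 8.68 and 8.54, then 7.70, 8.09 and 8.03 (-0.73 ± 0.13). In both, every end array lay below every start array. Of 18 progenitor and fetal regulators 3 fell and 0 rose. The third was Gfi1b, a repressor of erythroid progenitors (-0.49 ± 0.13), which was not called without start replicate 1 (adjusted p = 0.114).

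The changes of at least 2-fold mostly set in after the midpoint. Of the 127 genes that rose at least 2-fold, 110 had a midpoint mean nearer to the start than to the end, and of the 101 that fell, 88 did. Many of the same genes differ between both lines before treatment, in either direction, as seen on arrays that did not enter the comparison. Of the 127 risers 27.6% were at least 2-fold higher in 8093 than in Bin-2 at the start of the nilotinib courses, against 1.07% of all genes, and 14.2% were at least 2-fold lower, against 1.26%. Of the 101 that fell 36.6% were at least 2-fold lower in 8093 and 6.93% at least 2-fold higher, against the same shares of all genes. For example, Eya1 had a mean of 8.22 in 8093 and 4.25 in Bin-2 there, and Ccr2 4.57 and 10.35. These shares describe genes chosen for a large change and carry no test.

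The genes that fell were not spread evenly over the genome. On chromosome 11, 14.6% of 1563 measured genes fell, against 1.73 to 4.01% on every other autosome and X. Ordered along the chromosome by RefSeq (assembly GRCm38.p6), most of these falls lay in 1 run from Flcn, the gene of folliculin, to Dhx40, an RNA helicase gene, which held 491 of the measured genes. The run was found by its values, as the stretch with the largest excess of change below -0.35 among genes with a mean level of at least 7 on the 6 arrays, so its values are a description with no test. Of its 160 genes at that level 145 fell (90.6%), 156 had a negative change and 2 rose. Among genes outside the run 2.44% fell. The run held 204 of all 679 falling genes (30%) but 21 of the 101 that fell at least 2-fold.

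Within the run the negative changes of the 160 genes ranged from -0.16 (1700071K01Rik) to -1.20 (Tmem97). The median change of the 160 genes was -0.72, with quartiles of -0.83 and -0.59, and corresponded to 0.608 times the start level. The 10 genes before the run had a median change of 0.05 and the 10 after it 0.02. At the near edge, Mprip outside the run changed by -0.21 and Flcn inside it by -0.37, neither called, while its neighbour Cops3, a COP9 signalosome gene, fell by 1.01 ± 0.13. At the far edge Cltc, the clathrin heavy chain gene, fell by 0.65 ± 0.09, Dhx40 by 0.50 ± 0.13, and Prr11 outside it changed by -0.18. The other 331 genes of the run, dimmer ones, had a median change of -0.15, and 59 of them fell. Among the stretches of lower genes kept for the other chromosomes, the best-scoring 1 of each, the longest was on chromosome 13 and held 6 genes, from the histone gene H2bc9 to H1f1, with a median change of -0.60.

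Genes with unrelated tasks fell together in this run, and those named here were chosen after their values were seen. Suz12, a subunit of the Polycomb repressive complex that methylates histones, read 9.48, 9.27 and 9.41 at the start and 8.28, 8.31 and 8.17 at the end (-1.14 ± 0.14). Polr2a, the largest subunit of RNA polymerase II, read 9.09, 9.15 and 9.14, then 8.09, 8.17 and 8.32 (-0.93 ± 0.10). Eif4a1, a translation initiation helicase, read 12.21, 12.24 and 12.10, then 11.48, 11.47 and 11.49 (-0.71 ± 0.08). End arrays were below start arrays in each. Prpf8, a core protein of the spliceosome, fell by 0.97 ± 0.10 and Map2k4, a kinase of the JNK pathway, by 0.74 ± 0.12. Nf1, the Ras GTPase-activating protein neurofibromin, read 7.66, 7.65 and 7.82 and then 6.94, 7.08 and 7.24 (-0.63 ± 0.12, adjusted p = 7.51e-04). Exceptions were chemokine genes of macrophages: Ccl6 rose by 2.17 ± 0.46 and Ccl3 by 1.90 ± 0.44, and Wfdc17 lies in the run too.

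**Figure D2:**
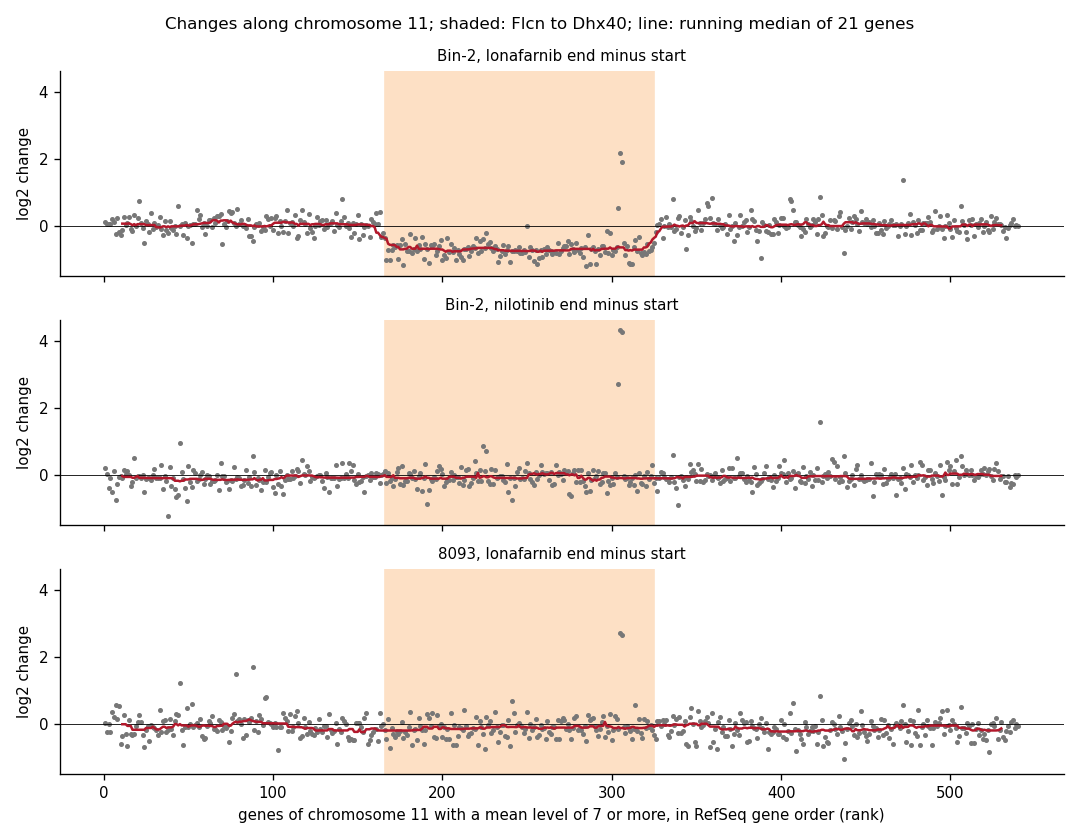
Log2 change of each chromosome 11 gene with a mean level of at least 7, in gene order, for lonafarnib in Bin-2 (top), nilotinib in Bin-2 (middle) and lonafarnib in 8093 (bottom), with a running median of 21 genes (red) and the run from Flcn to Dhx40 shaded. In the top panel the running median steps down at 1 edge of the shaded run and back up at the other, in the lower panels it does not, and the few high points in it are macrophage-type chemokine genes.

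The step was equally large on each end array. Relative to the mean of the start arrays, the 160 genes had medians of -0.73, -0.72 and -0.70 on the end arrays and 0.02, -0.01 and -0.02 on the start arrays. The rest of chromosome 11 had medians of 0.01, 0.04 and 0.05 on the same end arrays. At the midpoint the run lay at -0.13, -0.26 and -0.17, close to the rest of the chromosome at -0.12, -0.19 and -0.16. At the end of nilotinib in Bin-2 the medians were 0.02, -0.06 and 0.01. In 8093 at the end of lonafarnib they were -0.09 and -0.16, relative to its own start. As the 160 genes were chosen for their low change in Bin-2 under lonafarnib, these values are set side by side with no test. DNA copy number was not measured, and no cause of this step was tested.

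**Figure D3:**
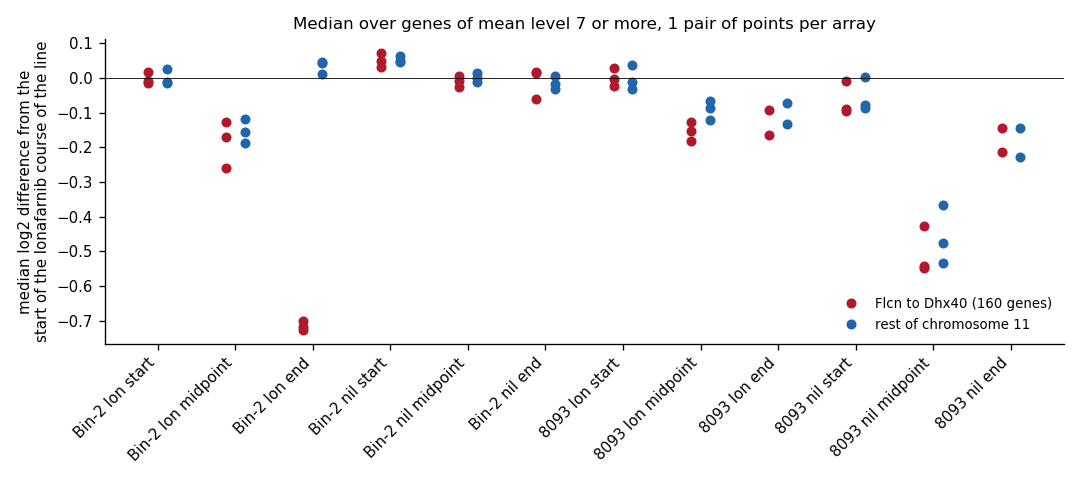
Median log2 difference from the start of the lonafarnib course of the same line, over the 160 genes of the run (red) and the rest of chromosome 11 (blue), with 1 pair of points per array and 12 groups of 2 or 3 arrays. On the 3 lonafarnib end arrays of Bin-2 the run lies at -0.73 to -0.70 while the rest of the chromosome lies near 0, and in every other group the red and blue points lie close together.

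Genes of prenyl transfer and CAAX processing were called at a share near that of all genes. Fnta, the alpha subunit shared by farnesyltransferase and its type I geranylgeranyl counterpart, read 6.97, 6.84 and 6.71 at the start and 6.94, 7.15 and 7.06 at the end (0.21 ± 0.14, adjusted p = 0.429). Fntb, the beta subunit that makes the enzyme a farnesyltransferase, read 6.15, 6.58 and 6.37, then 6.41, 6.24 and 6.32 (-0.05 ± 0.13, adjusted p = 0.906). Start and end arrays overlapped in both. Pggt1b, the beta subunit of that counterpart, read 8.87, 9.29 and 9.21, then 9.46, 9.48 and 9.50 (0.35 ± 0.14, adjusted p = 0.134), and Ggps1, which makes geranylgeranyl diphosphate, changed by 0.32 ± 0.13 (adjusted p = 0.176). Neither passed, and arrays that do not overlap, as here, were found in 25.8% of all genes. Of 13 genes of prenyl transfer and CAAX processing 0 rose and 1 fell, beside 8.07% called among all genes. The 1 that fell was Chml, a Rab escort protein (-0.50 ± 0.12). Chml was not called without start replicate 2 or end replicate 1 (adjusted p = 0.0607 and 0.0597). The protease genes Rce1 (-0.05) and Zmpste24 (0.13), the methyltransferase Icmt (0.24) and the Rab transferase subunits Rabggta (0.05) and Rabggtb (-0.08) did not pass. Nor did the escort protein Chm (0.30) and the prenylcysteine oxidases Pcyox1 (0.40) and Pcyox1l (0.07). Pcyox1 was called with all 6 Bin-2 start arrays as controls (adjusted p = 0.0203). It was also called with genes of a mean below 5 left out (0.0278) and with a trended and robust prior (0.0345). The median change of the list was 0.13, against 0.01 over all genes.

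Genes of farnesylated proteins were called at a share near that of all genes. Of 27 measured ones 2 rose and 1 fell, beside 8.07% called among all genes. Their median change was 0.01, as over all genes. Pex19, the farnesylated chaperone of peroxisomal membrane proteins, read 8.11, 7.72 and 7.71 at the start and 8.53, 8.54 and 8.68 at the end (0.74 ± 0.13, adjusted p = 1.65e-04). Phka1, a phosphorylase kinase subunit, rose by 0.73 ± 0.15. Rasd1, a Ras-like GTPase whose gene lies in the chromosome 11 run, fell by 0.51 ± 0.15. Its call was lost without start replicate 1 or 2 or end replicate 3 (adjusted p = 0.108, 0.191 and 0.328), with the nilotinib start arrays as controls (-0.27, adjusted p = 0.368), with all 6 Bin-2 start arrays (0.065 adjusted) and in a fit of the 6 arrays alone (0.231 adjusted). Nras, a main Ras isoform of blood cells, changed by 0.22 ± 0.10 (adjusted p = 0.187), with arrays at 9.49, 9.68 and 9.70 and then 9.90, 9.86 and 9.77. Rheb, the activator of mTORC1, changed by 0.12, Rhob by -0.16, and the lamin genes Lmna, Lmnb1 and Lmnb2 by -0.26, -0.15 and -0.13, none called. Nor were Rhebl1 (-0.07), Rnd1 (-0.19), Rnd2 (0.04), Rnd3 (0.30), Diras1 (0.01), the DnaJ chaperones Dnaja1 (-0.04), Dnaja2 (-0.08) and Dnaja4 (-0.18), the kinetochore proteins Cenpe (0.04) and Cenpf (0.07), Inpp5e (0.21), Ptp4a2 (0.02), Ptp4a3 (0.12), Nap1l1 (-0.03), Ykt6 (0.13), Uchl1 (-0.17), Stk11 (0.11) and Phka2 (-0.01). Upstream of the prenyl donors, 1 of 20 mevalonate and cholesterol synthesis genes fell, Insig1, a brake on sterol synthesis (-0.44 ± 0.12), and 0 rose. Insig1 was not called without start replicate 2 or end replicate 1 or 3 (adjusted p = 0.0663, 0.0628 and 0.0609).

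A few regulators of Ras were called, in both directions. Rasgrp4, a Ras exchange factor of mast and myeloid cells, read 5.31, 5.27 and 5.32 at the start and 6.93, 6.76 and 7.04 at the end (1.61 ± 0.19, adjusted p = 3.83e-07). Rasgrp3, an exchange factor of B cells, read 6.58, 6.66 and 6.68, then 5.57, 5.40 and 5.64 (-1.10 ± 0.27, adjusted p = 0.00631). Of 19 exchange factors and Ras GAPs 1 rose and 2 fell, with a median of 0.03, beside 8.07% called among all genes. The second that fell was Nf1, which lies in the chromosome 11 run. Among 20 feedback genes of the ERK pathway 1 rose and 3 fell, with a median of -0.06. Dusp4, an ERK phosphatase, fell by 0.88 ± 0.14 and the feedback inhibitor Spry1 by 0.74 ± 0.12, while its relative Spry2 rose by 0.64 ± 0.13. Spry4 fell by 0.64 ± 0.17, with the call lost without start replicate 2 or end replicate 1 or 3 (adjusted p = 0.052, 0.0622 and 0.0799). Dusp6, an ERK phosphatase often used as a readout of the pathway, did not pass (-0.22 ± 0.16, adjusted p = 0.493).

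Targets of STAT5, the transcription factor that cytokine receptors and BCR/ABL activate, held several rises. Of 15 measured targets 5 rose and 1 fell, with a median change of 0.18, beside 4.66% rising and a median of 0.01 over all genes. Cish, a feedback inhibitor of cytokine signalling, read 6.11, 6.51 and 6.65 at the start and 7.56, 7.31 and 7.40 at the end (1.00 ± 0.14, adjusted p = 7.12e-06). Pim2, a survival kinase, read 7.61, 7.13 and 7.52, then 8.36, 8.42 and 8.34 (0.95 ± 0.11). Neither gene's arrays overlapped. Socs2 rose by 0.64 ± 0.11, Socs3 by 0.60 ± 0.15 and the D-type cyclin Ccnd2 by 0.38. Socs3 was not called without start replicate 3 (adjusted p = 0.0702). Il2ra, the interleukin-2 receptor alpha chain, fell by 1.10 ± 0.16, from 9.13, 9.01 and 9.30 to 8.15, 8.01 and 7.98.

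Promoters of 11 of these 15 targets are listed by RefSeq (GRCm38.p6), from 250 bases before to 50 after the start of the gene, and were searched for TTCNNNGAA, the motif that STAT proteins bind, which reads the same on both strands. Of all 32851 such promoters, each counted singly, 8.3% hold it. Counted by gene, 3 of the 11 targets hold it in at least 1 promoter, namely Cish, Socs3 and Bcl6. Some targets have several listed promoters, so the share and the count differ in unit. The promoters of Cish and Socs3, which rose, are shown with the motif in capitals. In Cish (chr9:107296409-107296708, plus strand) it occurs at the start and again 11 bases after it, and in Socs3 (chr11:117969317-117969616, minus strand) 154 bases before it.
Cish: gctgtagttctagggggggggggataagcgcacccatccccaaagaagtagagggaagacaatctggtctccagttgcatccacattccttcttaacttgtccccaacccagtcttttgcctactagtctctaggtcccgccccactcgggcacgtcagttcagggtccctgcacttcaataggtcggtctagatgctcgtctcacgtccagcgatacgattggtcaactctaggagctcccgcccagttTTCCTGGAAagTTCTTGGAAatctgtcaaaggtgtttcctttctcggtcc
Socs3: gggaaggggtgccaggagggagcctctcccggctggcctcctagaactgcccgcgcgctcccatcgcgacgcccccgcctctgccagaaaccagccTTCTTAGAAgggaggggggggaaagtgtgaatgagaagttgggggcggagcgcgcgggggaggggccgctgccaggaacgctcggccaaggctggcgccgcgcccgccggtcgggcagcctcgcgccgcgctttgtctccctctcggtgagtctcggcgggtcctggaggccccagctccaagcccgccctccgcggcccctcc
The matches describe these letters and were not tested for binding. The promoter of Pim2 holds no match in this window.

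Some FOXO targets and regulators of cell death were called as well, beside 4.66% rising and 3.41% falling over all genes. Of 18 FOXO targets 4 rose and 0 fell: Bcl2l11, the gene of the death-promoting BIM, Foxo1 itself (0.72 ± 0.13), the cyclin G2 gene Ccng2 (0.65 ± 0.12) and the cell cycle inhibitor Cdkn1b (0.50 ± 0.13). Cdkn1b was not called without start replicate 2 or end replicate 1 (adjusted p = 0.0548 and 0.0574). Bcl2l11 read 7.82, 7.67 and 7.70 at the start and 8.60, 8.41 and 8.41 at the end (0.74 ± 0.12, adjusted p = 1.12e-04). Bcl2, the survival protein that BIM binds, read 8.26, 8.12 and 8.26, then 9.10, 9.06 and 9.19 (0.90 ± 0.12). The death-promoting and the protective gene both lay higher on every end array. Bid, another death-promoting member, fell by 0.58 ± 0.12, and the other 15 of the 18 BCL2 family genes did not pass. Of 24 p53 targets 2 rose and 3 fell, with a median of -0.10. Btg2 rose by 1.22 ± 0.17 and Polk by 0.59 ± 0.14. Plk2 fell by 0.79 ± 0.17, Tnfrsf10b by 0.66 ± 0.16 and Psrc1 by 0.57 ± 0.14. Polk and Tnfrsf10b were not called without start replicate 1 (adjusted p = 0.0546 and 0.0563), and Tnfrsf10b and Psrc1 not without end replicate 2 (adjusted p = 0.0889 and 0.0666). With the nilotinib start arrays as controls Polk stood at 0.33 (adjusted p = 0.2).

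Some genes of the pre-B state changed while others did not pass. Igll1 (0.08 ± 0.13), Rag1 (-0.20 ± 0.21), Pax5 (0.30 ± 0.19), Il7r (0.25 ± 0.16) and Myc (-0.20 ± 0.15) did not pass. Of 16 genes of the pre-B cell receptor and its signalling 2 rose and 1 fell, beside 4.66% rising and 3.41% falling over all genes. Cd79a rose by 0.52 ± 0.12 and the adaptor Bank1 by 0.94 ± 0.17, and Cd72, an inhibitory B cell coreceptor, fell by 0.98 ± 0.13. Of 27 B-lineage transcription factors 3 rose and 0 fell, with a median of 0.02. The risers were Foxo1, Spib (0.64 ± 0.14) and Erg (0.47 ± 0.12). Erg was not called without start replicate 1 (adjusted p = 0.0647), and Spib not when the fit was limited to the 6 arrays (adjusted p = 0.0581). Of 17 pre-B markers 2 rose and 2 fell, including Cd24a at -0.85 ± 0.17, and the list's mean level was 9.18 to 9.34 on the start arrays and 9.24 to 9.31 on the end arrays. Abl1, whose kinase domain is part of the transgene, rose by 0.31 ± 0.09 (adjusted p = 0.0328), and Bcr did not pass (-0.08 ± 0.15). The Abl1 call was lost without start replicate 1 or 2 or end replicate 1 or 3 (adjusted p = 0.0579, 0.194, 0.13 and 0.0916), with arrays centred (0.0538), with the nilotinib start arrays as controls (0.0633) and in a fit of the 6 arrays alone (0.162), and the array does not separate the transgene from the mouse's own gene.

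Fatty acid synthesis was the list with the lowest median, -0.29, with 6 of 14 genes falling and 1 rising. Scd1, the stearoyl-CoA desaturase, read 6.19, 6.38 and 7.32 at the start and 4.69, 4.58 and 4.65 at the end (-1.98 ± 0.24, adjusted p = 6.19e-07), with a midpoint mean of 5.08. Acaca, the acetyl-CoA carboxylase, read 8.65, 8.88 and 8.96, then 7.72, 7.74 and 7.58 (-1.15 ± 0.11). Srebf1, the transcription factor that induces this pathway, read 7.95, 7.81 and 7.77, then 6.84, 6.78 and 6.85 (-1.02 ± 0.11). Acaca and Srebf1 lie in the chromosome 11 run, and without its genes the list's median was -0.26 with 4 falling. Fasn, the fatty acid synthase, fell by 0.36, Fads1 by 0.34 and Scd2 by 0.39 ± 0.11. Scd2 was not called without start replicate 2 or 3 or end replicate 3 (adjusted p = 0.0532, 0.131 and 0.152), nor with the nilotinib start arrays as controls (0.0582). The falling count was 3 without start replicate 3. Acss2, which makes acetyl-CoA from acetate, rose by 0.75 ± 0.17, with the call lost without start replicate 2 (adjusted p = 0.0559).

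Other lists of growth genes overlapped with the run to different degrees. Of 33 DNA replication genes 8 fell and 0 rose, with a median of -0.22. Rpa1, of the single-strand binding complex, fell by 1.14 ± 0.10 and lies in the run. Outside it fell Rrm2, the ribonucleotide reductase subunit, from 8.94, 8.96 and 8.84 to 7.87, 8.18 and 8.02 (-0.89 ± 0.18), and the helicase genes Mcm2 (-0.57 ± 0.16) and Mcm4 (-0.49 ± 0.11). Without start replicate 1 neither helicase gene was called (adjusted p = 0.206 and 0.0526), and Mcm2 was not without end replicate 1 or 3 (adjusted p = 0.113 and 0.0518). The count was 3 without start replicate 1, 5 without end replicate 1 and 5 without end replicate 3. Of 31 ribosome biogenesis genes 5 fell, with a median of -0.24. Mybbp1a (-1.08 ± 0.13) and Tsr1 (-1.06 ± 0.11) lie in the run. Counts were 2 without start replicate 1 or end replicate 2 and 3 without start replicate 2, start replicate 3 or end replicate 1 and 8 after quantile normalization. Of 27 mitosis genes 1 fell, Aurkb, the kinase of the chromosomal passenger complex (-0.96 ± 0.11), which lies in the run. Of 27 genes of oxidative phosphorylation 0 rose and 0 fell in the limma fit, and the median was -0.12.

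Genes of lysosomes and autophagy had the highest median of the lists, 0.39, and 9 of 27 rose while 0 fell. Ctsl, the protease cathepsin L, read 6.39, 6.13 and 5.96 at the start and 8.20, 8.35 and 8.46 at the end (2.18 ± 0.35, adjusted p = 5.97e-05). Atp6v0d2, a subunit of the proton pump, rose by 2.26 ± 0.44 and the hexosaminidase Hexa by 0.94 ± 0.21. Npc1, the lysosomal cholesterol exporter, read 8.32, 8.49 and 8.43, then 9.32, 9.13 and 9.39 (0.86 ± 0.13). Every end array of these 4 genes was above every start array. Without start replicate 2 the count was 5. The macrophage marker mean, 5.62 to 5.97 on the start arrays and 6.06 to 6.51 on the end arrays, was higher at the end as well, and its part in this result was not tested.

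Transporters, cytokines and antigen presentation genes held further rises. Abcg2, the efflux pump of many drugs, read 4.86, 4.94 and 4.93 at the start and 6.98, 6.76 and 6.71 at the end (1.90 ± 0.17, adjusted p = 3.02e-09), with a midpoint mean of 4.46. Abcd3, a peroxisomal fatty acid transporter, rose by 1.17 ± 0.16 and the sterol exporter Abcg1 by 0.53 ± 0.11. Abcg2 thus lay on all end arrays above start and midpoint. Of 24 ABC transporters 5 rose and 0 fell. The rising count was 3 without start replicate 1 or 3 or end replicate 2 or 3. After quantile normalization 3 rose and 1 fell. Of 18 NF-kappaB targets 7 rose and 0 fell, with a median of 0.21, beside 4.66% rising over all genes. The largest rise was that of Ccl3 (1.90), a chemokine gene of macrophages. The part of macrophage RNA in it was not tested. The lymphotoxin genes Lta (1.52 ± 0.16) and Ltb (0.95 ± 0.17) rose too. Lta read 5.01, 5.50 and 5.15 and then 6.65, 6.39 and 7.18. Ltb read 5.66, 5.83 and 5.57 and then 6.40, 6.45 and 7.08. End replicate 3 was the highest in Lta and Ltb. The rising count of the list was 4 without it, 4 without start replicate 3 and 4 after quantile normalization. Of 10 MHC class II genes 3 rose: the invariant chain Cd74 by 1.42 ± 0.28, H2-Aa by 1.07 ± 0.31 and H2-Ea by 0.76 ± 0.21. The count was 1 without start replicate 1, start replicate 3, end replicate 2 or end replicate 3, and H2-Aa was not called without start replicate 2 either (adjusted p = 0.0513). With the nilotinib start arrays as controls neither H2-Aa (0.78, adjusted p = 0.147) nor H2-Ea (0.61, adjusted p = 0.0829) was called. Macrophages carry MHC class II too, and the part of the macrophage marker mean given above in these rises was not tested.

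**Figure D4:**
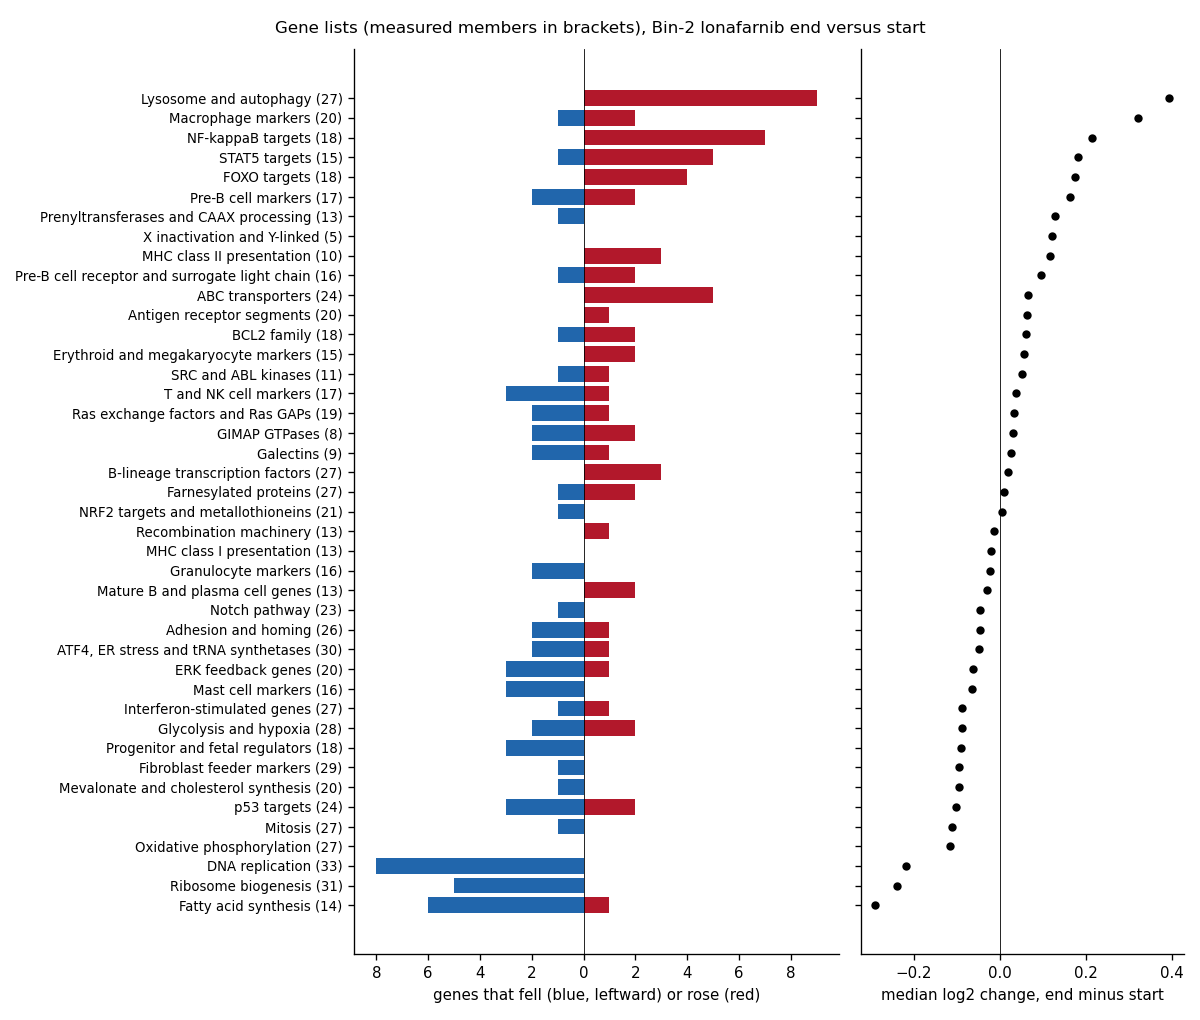
For each of 42 gene lists, the number of genes that rose (red) or fell (blue, leftward) at the lonafarnib end of Bin-2 and the median log2 change, ordered by that median. Lysosome and autophagy genes have the highest median (0.39, 9 rising) and fatty acid synthesis genes the lowest (-0.29, 6 falling), and most other lists lie within about 0.2 of 0.

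Of 26 adhesion and homing genes 2 fell and 1 rose, a share near the 8.07% called among all genes, with a median of -0.05. Itga6, the laminin-binding integrin chain, read 6.85, 6.95 and 7.13 at the start and 4.90, 5.05 and 5.24 at the end (-1.91 ± 0.14, adjusted p = 2.34e-11). Itga4, a chain of the receptor for VCAM-1 and fibronectin, read 10.52, 10.43 and 10.37, then 9.68, 9.63 and 9.69 (-0.78 ± 0.10). The gene that rose was Itga5, a call lost without any of the 6 arrays (adjusted p of 0.056 to 0.246). Of 8 GIMAP GTPases, which act in lymphocyte survival, 2 rose and 2 fell: Gimap3 rose by 2.55 ± 0.26, from 5.72, 5.64 and 6.55 to 8.70, 8.26 and 8.60, and Gimap7 fell by 0.97 ± 0.16. Of 28 glycolysis and hypoxia genes 2 rose and 2 fell, with Ndrg1 at 1.21 ± 0.10 and the hypoxia-induced Egln3 at -1.06 ± 0.14.

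Among 9 measured galectins and galectin ligands 1 rose and 2 fell. Lgals9, which encodes galectin-9, read 10.67, 10.65 and 10.67 at the start and 9.45, 9.53 and 9.52 at the end (-1.16 ± 0.10, adjusted p = 1.44e-09) and lies in the chromosome 11 run. Lgals3, which encodes galectin-3, read 5.89, 6.12 and 5.88, then 6.77, 7.56 and 7.37 (1.27 ± 0.35, adjusted p = 0.0168), below its midpoint mean of 8.19. Lgals3 was not called without start replicate 1 or 3 or end replicate 2 or 3 (adjusted p = 0.0615, 0.0576, 0.0965 and 0.0693), nor with the nilotinib start arrays as controls (0.0616). Lgals3bp, a galectin-binding protein gene, fell by 0.40 ± 0.12, a call lost without each of 5 arrays, start replicates 1 to 3 and end replicates 1 and 2 (adjusted p of 0.0516 to 0.177). Lgals1, the brightest of them at 11.03 to 11.61, changed by 0.02 ± 0.14. Lgals2 (0.15), Lgals4 (-0.26), Lgals7 (-0.01), Lgals8 (0.29) and Lgals12 (0.09) did not pass. Lgals8 was called under other settings, among them all 6 Bin-2 start arrays (adjusted p = 0.0123) or the nilotinib start arrays (0.0479) as controls.

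Some markers of other cell types that the cultures could hold were called, beside 4.66% rising and 3.41% falling over all genes. Of 16 mast cell markers 3 fell and 0 rose, namely Kit, Cpa3, the carboxypeptidase of mast cell granules (-1.07 ± 0.26), and Mcpt8, a basophil protease (-0.96 ± 0.19). Cpa3 was not called without end replicate 3 (adjusted p = 0.0693). The mean of the list was 4.33 to 4.57 on the start arrays and 4.22 to 4.26 on the end arrays. Of 16 granulocyte markers 2 fell, with Ctsg, the neutrophil protease cathepsin G, at -1.94 ± 0.23. Of 17 T and NK cell markers 3 fell, Zap70, Nkg7 and Thy1, by 1.38, 1.36 and 1.26, and Cd28 rose by 0.85 ± 0.20, not called without end replicate 1 or 2 (adjusted p = 0.0577 and 0.0504). Of 29 fibroblast markers 1 fell, the matrix protein gene Thbs1 (-2.81 ± 0.30), from 8.82, 8.73 and 8.66 to 5.91, 5.85 and 6.02, and 0 rose. The fibroblast mean lay at 4.86 to 4.97 and then 4.76 to 4.86, and Col1a1, the collagen of the feeder cells, at 6.49, 6.38 and 6.16 and then 6.08, 6.12 and 6.14. The Y-linked genes Eif2s3y, Kdm5d, Uty and Usp9y lay between 1.89 and 3.38 on all 6 arrays, and Xist at 11.25 to 11.68.

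The 3 end plates were as alike as the 3 start plates. The median range of a gene over the end arrays was 0.26, against 0.28 over the start arrays, and 178 and 155 genes had a range above 1. The genes with the widest end range and a start range under 0.5 were Speer6-ps1, Clca4b, Scml2, Obox7, Tm4sf20 and Vopp1. All but Vopp1 had levels under 4.3 on these arrays, near those of the Y-linked genes, and Vopp1 read 4.99, 5.60 and 4.23.

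Whether regrowth in lonafarnib differed from regrowth in nilotinib was asked with the difference of both end changes in Bin-2, each against its own start. Limma called 1896 genes (9.51%), 969 with the higher (4.86%) and 927 with the lower change under lonafarnib (4.65%). After quantile normalization 702 were higher and 954 lower. With each array centred on its median 1084 were higher and 850 lower, so the direction of the excess depends on the scaling. Of the 671 that differed at least 2-fold, 457 were lower. The largest of these were genes of mast cells, platelets and antigen-presenting cells whose means were higher at the end of nilotinib than at its start. Cpa3 had means of 6.50 and 11.48 at the nilotinib start and end, and its change under lonafarnib was lower by 6.06 ± 0.36 log2 units (adjusted p = 9.57e-13). Fcer1a, the IgE receptor chain, differed by -5.48 ± 0.49, Ppbp, the platelet basic protein gene, by -4.88 ± 0.72, F13a1, coagulation factor XIII A, by -4.87 ± 0.49, H2-Ea by -4.49 ± 0.30 and Ms4a4a by -4.27 ± 0.85. Fcer1a lay at 3.37, 3.81 and 3.29 at the lonafarnib start and 3.61, 3.66 and 2.92 at its end, at or little above the level of the Y-linked genes. Of the mast cell list 12 of 16 genes and of the macrophage list 18 of 20 had a lower change under lonafarnib, and 0 of either a higher one. The macrophage list's mean was 8.85 at the nilotinib end.

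In the other direction, Gria2, a glutamate receptor subunit, read 7.13, 7.19 and 7.54 at the lonafarnib start and 9.88, 9.63 and 9.75 at its end, while in nilotinib its mean went from 7.48 to 4.31. The difference was 5.64 ± 0.40 (adjusted p = 4.28e-11). C7 differed by 4.67 ± 0.26, Gimap3 by 4.35 ± 0.37, Gca by 3.84 ± 0.25, Rragb by 3.31 ± 0.20 and Slc5a9, a sodium-coupled sugar transporter, by 3.28 ± 0.19. Gria2, Gimap3 and Slc5a9 had lower means at the nilotinib end than at its start, and C7, Gca and Rragb by 0.48, 0.59 and 0.51 too. The difference of Scd1 was -0.04 ± 0.34 (adjusted p = 0.966).

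**Figure D5:**
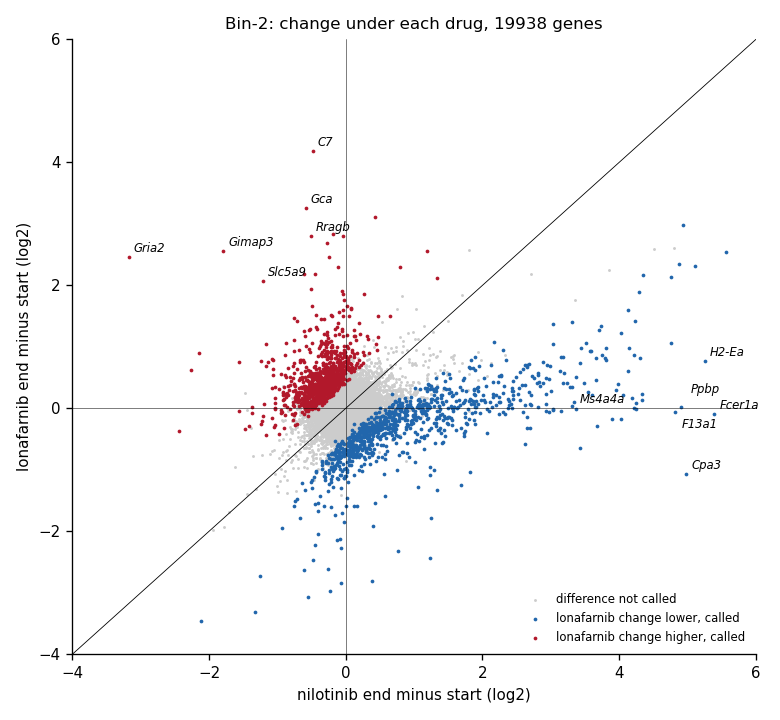
End minus start change of each of 19938 genes in Bin-2 under nilotinib (horizontal) and lonafarnib (vertical), in log2 units, with genes whose difference was called in red (higher under lonafarnib) or blue (lower) and the line of equal change in black. A long blue arm of genes rose with nilotinib and little with lonafarnib, Cpa3 and Fcer1a at its far end, and C7, Gca, Gria2, Gimap3, Rragb and Slc5a9 stand apart above the line.

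Whether the same drug was followed by the same changes in both lines was asked with the difference between the Bin-2 and the 8093 end change in lonafarnib, at different doses and days. Limma called 920 genes (4.61%), 423 with the higher (2.12%) and 497 with the lower change in Bin-2 (2.49%). With each array centred on its median 524 were higher and 408 lower, so the direction of the excess depends on the scaling. The count was 566 without end replicate 2 of 8093, which left 1 array in that group. Myzap differed by 3.99 ± 0.16 (adjusted p = 7.44e-17), and its 8093 mean went from 7.38 to 6.19. Gca differed by 3.30 ± 0.26, Vat1l by 2.97 ± 0.29, Eya1 by 2.96 ± 0.34, C7 by 2.92 ± 0.27 and H2-Aa by 2.76 ± 0.46. Of these, C7 also went up in 8093, from a mean of 7.33 to 8.59, and Eya1 stood at 8.26 and 8.12. Lower changes in Bin-2 were those of Cpa3 (-5.45 ± 0.39), Cdh17 (-4.14 ± 0.42), Muc13 (-3.87 ± 0.22), Cybb (-3.84 ± 0.52), Scd1 (-3.14 ± 0.36) and S100a6 (-3.03 ± 0.46). Scd1 went from 8.76 to 9.91 in 8093 while it fell in Bin-2. The calcium-binding protein gene S100a6 read 4.71, 5.40 and 4.29 and then 4.99, 4.76 and 4.80 in Bin-2, and went from 5.10 to 8.18 in 8093.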

How the data were processed

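The authors deposited log2 probeset values of 34 Affymetrix arrays (1.02 to 14.37). Partek is named in the submitters' processing notes; its role, and how background and normalization were handled, was not given in the sources used here. Of 35557 probesets 21789 had 1 gene symbol, 1621 several and 12147 were unlisted; the brightest probeset of a gene was kept. Groups come from the titles. limma 3.58.1 in R 4.3.3 fitted a mean for each of 12 groups (lmFit, eBayes, 22 residual and 6.6986 prior degrees of freedom), with two-sided p adjusted by Benjamini-Hochberg over 19938 genes and calls at 0.05. Labels give lonafarnib in mM and in µM, and µM is printed. Replicate numbers did not pair start and end arrays (correlations of deviations -0.12, 0.03 and -0.09), and arrays were not paired.

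Named were 14 genes each way of largest change, called and not overlapping (6 each way for both differences of changes), up to 4 members of a list in its main direction and 2 in the other, all farnesylation, CAAX and galectin genes, 6 genes of wide end range and 14 measured fixed genes, predicted, olfactory, vomeronasal and small RNA genes left out. Members, the 43 lists and the rule were chosen with earlier results of these data known, and 1 list is not reported here. The chromosome 11 run was found after seeing the data. Csf1r and the run's genes outside the rule were chosen after their values were seen. The fit and the scan were tested on simulated data.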

Additional observations from a re-analysis of the deposited data

Results flagged for a closer look

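Changes that differed by test between the drugs or between the lines are listed here. Between lonafarnib and nilotinib in Bin-2 (limma), 1896 genes differed. Higher changes under lonafarnib were those of Gria2 (5.64), C7 (4.67), Gimap3 (4.35), Gca (3.84), Rragb (3.31) and Slc5a9 (3.28). Lower were those of Cpa3 (-6.06), Fcer1a (-5.48), Ppbp (-4.88), F13a1 (-4.87), H2-Ea (-4.49) and Ms4a4a (-4.27). Between Bin-2 and 8093 in lonafarnib, 920 genes differed. Higher changes in Bin-2 were those of Myzap (3.99), Gca (3.30), Vat1l (2.97), Eya1 (2.96), C7 (2.92) and H2-Aa (2.76). Lower were those of Cpa3 (-5.45), Cdh17 (-4.14), Muc13 (-3.87), Cybb (-3.84), Scd1 (-3.14) and S100a6 (-3.03). All are log2 differences of changes.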

How the results depend on the processing

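Of 210 results of single named genes, 0 changed direction where the main fit or the fit under another setting called the gene. Changes of sign without a call in either fit were not counted. Other called genes were not followed across settings. Of the 210, 168 kept their side of the threshold under all of their settings, 40 lost a call under at least 1 and 2 gained one. With the replicate block, a fit with the replicate number within line and drug, 1457 genes were called for the end against the start, 1698 for the difference between drugs and 701 for the difference between lines; 1405 of the 1608 calls were still called the same way, Abl1 was not (adjusted p = 0.0611), and 2 ribosome biogenesis genes fell. With the nilotinib start arrays as controls 1397 were called (667 higher, 730 lower), and 222 of the 228 at least 2-fold calls stood. Leaving out 1 array gave 1155 to 1331 calls for the end against the start, 609 to 749 higher, 519 to 612 lower. The difference between drugs gave 1394 to 2158. The difference between lines gave 566 to 922, with 211 to 446 higher and 330 to 476 lower; the lone array left in 8093 was then assumed to vary like the other groups. The median change on chromosome 11 was -0.06, -0.0777 after quantile normalization, -0.0687 with arrays centred and -0.0856 to -0.0432 without 1 array. The settings of the scan were chosen after seeing the data: the run ended at Dhx40, Cltc or Taf15 and its median lay between -0.78 and -0.66 in 12 alternatives. It began at Flcn, Cops3 or Nlrp3. Without its genes 1341 genes were called. With 3 arrays a group, small changes of dim genes are beyond what these arrays resolve.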
